A study of Mus musculus with 12 samples.

Results

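The set of 7 genes described here, named for their roles in plasminogen activation and coagulation, is *Plat*, *Plau*, *Plaur*, *Serpine2*, *Serpinf1*, *F3* and *Thbd*, chosen by name with earlier results of these data known, and followed in the RNA of cultured mouse adventitial fibroblasts. They are 7 of the 54352 gene symbols in the count table, and all 7 were found there and passed the filter on low counts in every comparison. Adventitial fibroblasts make up the connective tissue of the adventitia, the outermost coat of an artery. Here they were grown from pieces of adventitia of the ascending or the descending aorta of wild-type C57Bl/6 mice, and the pieces taken as ascending included the aortic root. The labels give an age of 14 weeks and 1 passage. The text of the study gives more than one value for both, so age and passage are uncertain. The 4 groups, of 3 libraries each, were descending control, descending TGFβ, ascending control and ascending TGFβ, with TGFβ given at 10 ng/mL for 48 h and solute alone in the control cultures. All 12 libraries carry the same batch number. The labels do not say that the 3 libraries of a group came from separate animals or cultures, so the p-values measure the spread between these libraries, which may be technical. The cells are cultures on plastic, without blood flow, plasma or the other layers of the wall.

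Plasminogen is a circulating precursor that is cleaved to plasmin, the protease that dissolves fibrin and also degrades pericellular matrix. The cleavage is done by tissue-type plasminogen activator (*Plat*) and urokinase (*Plau*), the latter held at the cell surface by its receptor (*Plaur*). Serpins, inhibitors that trap serine proteases, restrain both activators, and among them protease nexin-1 (*Serpine2*) inhibits thrombin as well as the activators. *Serpinf1* encodes pigment epithelium-derived factor, a secreted member of the serpin family without inhibitory activity that is known for restraining vessel growth. Clotting starts when tissue factor (*F3*), carried by cells around vessels, meets factor VII, and thrombomodulin (*Thbd*) turns thrombin from a clotting enzyme into an activator of the anticoagulant protein C. TGFβ is a cytokine that turns fibroblasts toward a contractile, matrix-producing state.

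The gene counts of a library summed to 16250126 to 23892943, and levels are given as normalized CPM, a gene's count relative to its library's total after edgeR's TMM scaling. A count of 3 in a library, taken here as the floor, equaled 0.117 to 0.207 normalized CPM and covers counting error only, since without molecular identifiers PCR copies are not told from separate molecules. Descending control replicate 3 stood apart, with 13031 genes detected against 19337 to 20931 in the other libraries and 11% mitochondrial counts against 0.703 to 1.03%. Tests of the 7 genes that use it are therefore given with and without it. Of 8 fibroblast markers, none was at 0 in any group. They summed to 12628 to 14269 in descending and 15519 to 16359.8 in ascending control libraries. With TGFβ they summed to 23396 to 25608 in descending and 20543 to 20713 in ascending libraries. At each site *Pdgfra*, *Dcn* and *Lum* were lower in the treated libraries, and *Pdgfrb*, *Col1a1* and *Col1a2* were higher. Of 8 endothelial markers, *Tie1* was at 0 in all libraries, *Pecam1* was at most 0.300 and *Cdh5* at most 0.260 normalized CPM, while *Tek* and *Erg*, described with *Thbd*, were detected. The 6 mesothelial markers summed to 85.4 to 101 in ascending control, 48.6 to 58.0 in ascending TGFβ and 23.3 to 28.9 in the descending libraries, with *Wt1* at 0 in 11 of the 12 libraries, and most of the sum was *Upk3b* and *Upk1b* in the ascending and *Upk1b* and *Krt19* in the descending libraries. The 8 macrophage markers summed to 58.0, 377 and 60.9 in ascending control, 31.3 to 45.9 in ascending TGFβ, 28.9 to 50.2 in descending control and 14.4 to 27.6 in descending TGFβ libraries. The 4 adipocyte markers summed to 22.4 to 30.6 in descending control, 9.74 to 18.5 in descending TGFβ, 0.913 to 5.0 in ascending control and 0.0473 to 0.575 in ascending TGFβ libraries. The 5 Schwann cell markers summed, in the same order, to 15.2 to 24.8, 11.9 to 13.7, 22.7 to 28.4 and 16.7 to 17.4, with *Sox10* at 0 in all descending and at 1.70 to 2.87 in the ascending libraries. The 8 smooth muscle markers, which activated fibroblasts also express, summed to 2527 to 2570.2 in descending and 1598 to 1710.4 in ascending control, and to 7999 to 8424 in descending and 5133 to 5227 in ascending TGFβ libraries, most of it *Acta2*. In bulk RNA, fewer cells of a type and less RNA per cell cannot be told apart.

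With TGFβ, the RNA of urokinase and of thrombomodulin was lower and that of the urokinase receptor and tissue factor higher, at both sites, by 3.18 to 8.94 fold. The RNA of tissue-type plasminogen activator was lower in ascending fibroblasts, and in descending ones its fall did not pass the test with all libraries (edgeR adjusted p = 0.116), while it passed without control replicate 3 and, with all libraries, in DESeq2. *F3*, *Serpinf1* and *Plau* were lower in ascending than in descending control fibroblasts, and *F3* and *Serpinf1* stayed lower under TGFβ, whereas the levels of *Plau*, *Plaur* and *Thbd* under TGFβ overlapped between the sites. The plot of levels by library shows these patterns.

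**Figure D1:**
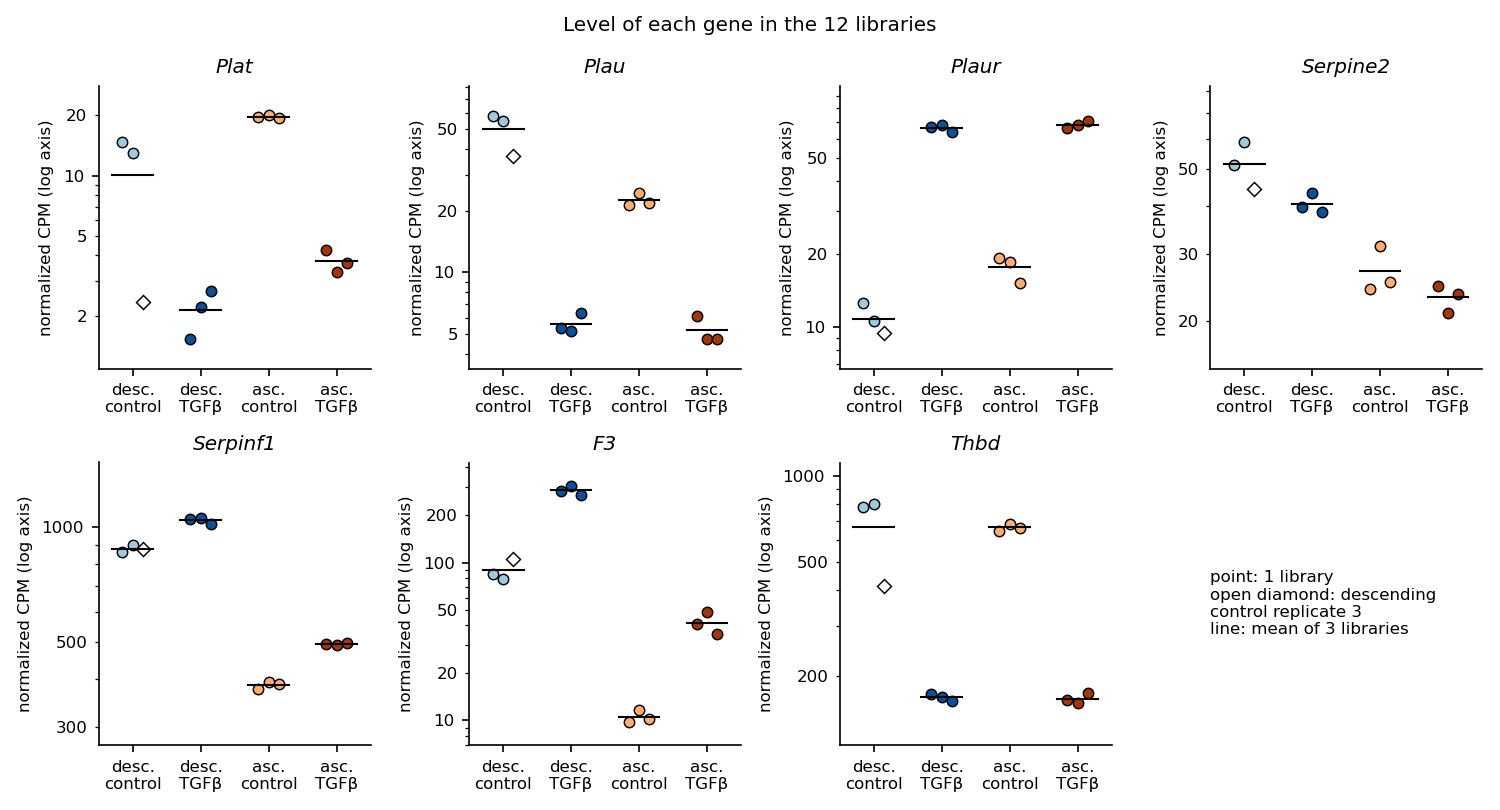
Normalized CPM on a log axis for each of the 7 genes (panels) in the 12 libraries, 1 point per library, with a line at the mean of the 3 libraries of a group; the open diamond is descending control replicate 3. *Plau* and *Thbd* fall and *Plaur* and *F3* rise from control to TGFβ at both sites, and every descending library of *F3* lies above every ascending library.

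*Plat*, tissue-type plasminogen activator, lies on GRCm38 at chr8:22757727-22782844 on the plus strand and has 13 exon blocks in the annotation. Its level was 19.7, 20 and 19.4 normalized CPM in the ascending control libraries and 4.28, 3.31 and 3.65 in the ascending TGFβ libraries. The groups did not overlap, and the ascending controls lay within 1 CPM of one another. With TGFβ the level fell 5.28-fold in these cells, a log2 fold change of -2.40 ± 0.11 (SE; edgeR adjusted p = 9.01e-12). In descending fibroblasts the controls held 14.8, 13 and 2.35 and the TGFβ libraries 1.53, 2.22 and 2.65 normalized CPM. The third control, replicate 3, lay inside the range of the TGFβ libraries, and the other 2 lay far above it. The log2 fold change in descending fibroblasts was -2.24 ± 0.69 with an edgeR adjusted p of 0.116. With all libraries it passed in DESeq2 (adjusted p = 0.0125) and with the 12 libraries in one edgeR fit (adjusted p = 0.0102), and it was -2.69 without that library (edgeR adjusted p = 2.61e-14). *Plat* had the lowest counts of the 7 genes, 30, 41 and 56 reads in the descending TGFβ libraries. In order, the group means were 19.7 ± 0.301 (SD, n = 3) in ascending control, 10.0 ± 6.72 in descending control (13.9 ± 1.23 without replicate 3, n = 2), 3.75 ± 0.493 in ascending TGFβ and 2.13 ± 0.564 in descending TGFβ. The SD of all 3 descending controls reaches the mean of ascending TGFβ.

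*Plau*, urokinase, lies at chr14:20836660-20843385 on the plus strand, with 11 exon blocks. The descending controls held 58.1, 54.7 and 36.8 normalized CPM and the descending TGFβ libraries 5.31, 5.15 and 6.34. Every control was over 5 times the highest TGFβ library. Urokinase RNA fell 8.94-fold in the descending cells, a log2 fold change of -3.16 ± 0.23 (edgeR adjusted p = 0.00176) that was -3.32 without control replicate 3. The ascending controls held 21.2, 24.5 and 21.9 and the ascending TGFβ libraries 6.11, 4.73 and 4.73 normalized CPM. These groups did not overlap either, and the ascending controls began from a lower level than the descending ones. In them it fell 4.36-fold, a log2 fold change of -2.13 ± 0.11 (edgeR adjusted p = 4.42e-11). The group means ran from 49.9 ± 11.4 (SD, n = 3) in descending control (56.4 ± 2.44 without replicate 3, n = 2) through 22.5 ± 1.73 in ascending control to 5.60 ± 0.644 in descending and 5.19 ± 0.798 in ascending TGFβ, and the last pair did not differ beyond their spread.

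*Plaur*, the urokinase receptor, lies at chr7:24462484-24475968 on the plus strand, with 6 exon blocks. It held 12.5, 10.5 and 9.38 normalized CPM in descending control and 66.8, 68.4 and 63.9 in descending TGFβ libraries. All TGFβ libraries lay far above all controls. The level rose 6.12-fold, a log2 fold change of 2.61 ± 0.15 (edgeR adjusted p = 0.00117), and by 2.53 without control replicate 3. In ascending fibroblasts the controls held 19.2, 18.5 and 15.1 and the TGFβ libraries 66.6, 68.4 and 70.8 normalized CPM. Receptor RNA thus moved the opposite way to the RNA of its ligand urokinase, and the treated libraries of both sites lay within one narrow band. The ascending rise was 3.88-fold, a log2 fold change of 1.96 ± 0.07 (edgeR adjusted p = 3.16e-13). In order, the means were 68.6 ± 2.13 (SD, n = 3) in ascending TGFβ and 66.4 ± 2.26 in descending TGFβ, which did not differ beyond their spread, 17.6 ± 2.18 in ascending control and 10.8 ± 1.56 in descending control (11.5 ± 1.38 without replicate 3, n = 2).

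*Serpine2*, protease nexin-1, lies at chr1:79794197-79861180 on the minus strand, with 10 exon blocks. It moved little with TGFβ. The ascending controls held 24.3, 31.4 and 25.4 and the ascending TGFβ libraries 24.7, 21.1 and 23.6 normalized CPM. The groups overlapped, and replicate 2 was the highest control and the lowest TGFβ library. The log2 fold change of -0.23 ± 0.09 passed the test (edgeR adjusted p = 0.039), but without ascending control replicate 2, the library with the high macrophage markers, it was -0.11 (adjusted p = 0.271), without ascending TGFβ replicate 2 it was -0.16 (adjusted p = 0.189) and without ascending TGFβ replicate 3 it was -0.24 (adjusted p = 0.0748). The descending controls held 51.2, 58.8 and 44.4 and the descending TGFβ libraries 39.7, 43.3 and 38.7 normalized CPM. The lowest control lay just above the highest TGFβ library. The log2 fold change there was -0.35 ± 0.14 with an edgeR adjusted p of 0.214, and -0.44 without control replicate 3 (adjusted p = 7.15e-06). The order of the means was 51.5 ± 7.21 (SD, n = 3) for descending control (55.0 ± 5.38 without replicate 3, n = 2), 40.6 ± 2.42 for descending TGFβ, 27.0 ± 3.80 for ascending control and 23.1 ± 1.87 for ascending TGFβ, and the SDs of the last pair meet.

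*Serpinf1*, at chr11:75409769-75422701 on the minus strand with 9 exon blocks, was the most abundant of the 7 per length in 3 of the 4 groups. It held 376, 392 and 389 normalized CPM in ascending control and 494, 489.6 and 496 in ascending TGFβ libraries. The groups were tight and did not overlap, although the change was small. The level rose 1.28-fold, a log2 fold change of 0.35 ± 0.03 (edgeR adjusted p = 2.05e-08). In descending fibroblasts the controls held 859, 899 and 875 and the TGFβ libraries 1051, 1055 and 1021 normalized CPM. Every descending library lay above every ascending one. The log2 fold change with TGFβ in descending fibroblasts was 0.24 ± 0.09 with an edgeR adjusted p of 0.195, while it passed in DESeq2 (adjusted p = 0.00774) and with the 12 libraries in one edgeR fit (adjusted p = 0.0121). It was 0.25 without control replicate 3 (adjusted p = 4.59e-05). The means were 1042 ± 18.8 (SD, n = 3) in descending TGFβ, 878 ± 20.1 in descending control (879 ± 28.2 without replicate 3, n = 2), 493 ± 3.37 in ascending TGFβ and 385 ± 8.42 in ascending control, and no neighbors in this order came within their SDs.

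*F3*, tissue factor, lies at chr3:121723537-121735048 on the plus strand, with 7 exon blocks. In ascending fibroblasts the controls held 9.78, 11.7 and 10.2 and the TGFβ libraries 40.7, 48.6 and 35.5 normalized CPM. The groups did not overlap, and the rise was 3.93-fold, a log2 fold change of 1.97 ± 0.11 (edgeR adjusted p = 7.04e-11). In descending fibroblasts the controls held 84.0, 78.8 and 106 and the TGFβ libraries 285, 307 and 266 normalized CPM. Even the lowest descending control lay above the highest treated ascending library. The level rose 3.18-fold there, a log2 fold change of 1.67 ± 0.16 (edgeR adjusted p = 0.00385), and by 1.81 without control replicate 3. The means were 286 ± 20.4 (SD, n = 3) in descending TGFβ, 89.5 ± 14.4 in descending control (81.4 ± 3.74 without replicate 3, n = 2), 41.6 ± 6.61 in ascending TGFβ and 10.6 ± 1.03 in ascending control, with no neighbors within their SDs.

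*Thbd*, thrombomodulin, is a gene of 1 exon at chr2:148404466-148408188 on the minus strand. It held 646, 683 and 659 normalized CPM in ascending control and 165, 160.1 and 174 in ascending TGFβ libraries. The level fell with no overlap of the groups, a log2 fold change of -2.00 ± 0.04 (edgeR adjusted p = 7.24e-17). The descending controls held 779.5, 799 and 412 and the descending TGFβ libraries 173, 168 and 163 normalized CPM. Replicate 3 was the low control, and it still lay above every treated library. Thrombomodulin RNA fell 3.97-fold there, a log2 fold change of -1.99 ± 0.27 (edgeR adjusted p = 0.0111) that was -2.23 without control replicate 3. The call was lost, with adjusted p from 0.0502 to 0.0918, when descending control replicate 2 or any of the descending TGFβ libraries was left out. Thrombomodulin is best known on endothelium, and its 160.1 to 799 normalized CPM here stood beside *Tie1* at 0 and *Cdh5* at or below 0.260. The 8 endothelial markers summed to 23.9 to 27.4 in control and 8.62 to 15.9 in TGFβ libraries. *Tek* made up most of the sum in control, at 23.6 to 25.7 normalized CPM, and stood at 3.60 to 9.27 with TGFβ. *Erg* went the other way, from at most 0.200 in control to between 2.74 and 5.26 in the TGFβ libraries of both sites, and *Kdr* stood at 0 to 0.955 in descending control and 1.23 to 1.61 in descending TGFβ libraries. The part of such cells in the change of *Thbd* was not tested beyond these levels. Both control means were close, 664 ± 218 (SD, n = 3) in descending (789 ± 14.1 without replicate 3, n = 2) and 663 ± 19.1 in ascending fibroblasts, as were the TGFβ means of 168 ± 5.37 and 166 ± 6.99.

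In ascending fibroblasts all 7 genes passed the test with TGFβ, 3 higher and 4 lower, where 55.8% of all 13917 genes tested passed it, 28.2% higher and 27.6% lower. Their median absolute log2 fold change was 1.97, against 0.28 over all genes tested. As the 7 were chosen with earlier results of these data known, this contrast only describes them. In descending fibroblasts 4 of 7 passed, *Plaur* and *F3* higher and *Plau* and *Thbd* lower, where 8.07% of 13825 genes passed, 3.59% higher and 4.48% lower. Without control replicate 3 all 7 passed, 3 higher and 4 lower, where 52.9% of 14311 genes did, 26.6% higher and 26.3% lower. The summed smooth muscle markers were also higher in the treated libraries, from *Acta2* at 1425 to 2349 normalized CPM in control to 4899 to 8049 with TGFβ. *Des* was lower in the treated libraries of both sites, and *Myh11* in ascending cells went from between 23.2 and 25.5 to between 12.5 and 17.7 normalized CPM. The macrophage, Schwann cell and adipocyte sums were lower in the treated libraries of each site, without overlap. *S100b* was the largest part of the Schwann cell sum. *Mbp* of that list was higher in treated descending libraries, at 1.12 to 2.03 against 0 to 0.506 normalized CPM in control. *Sox10* overlapped between treated and control ascending libraries. The mesothelial sum was lower in the treated ascending libraries. The part of such cells in these changes was not tested.

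**Figure D2:**
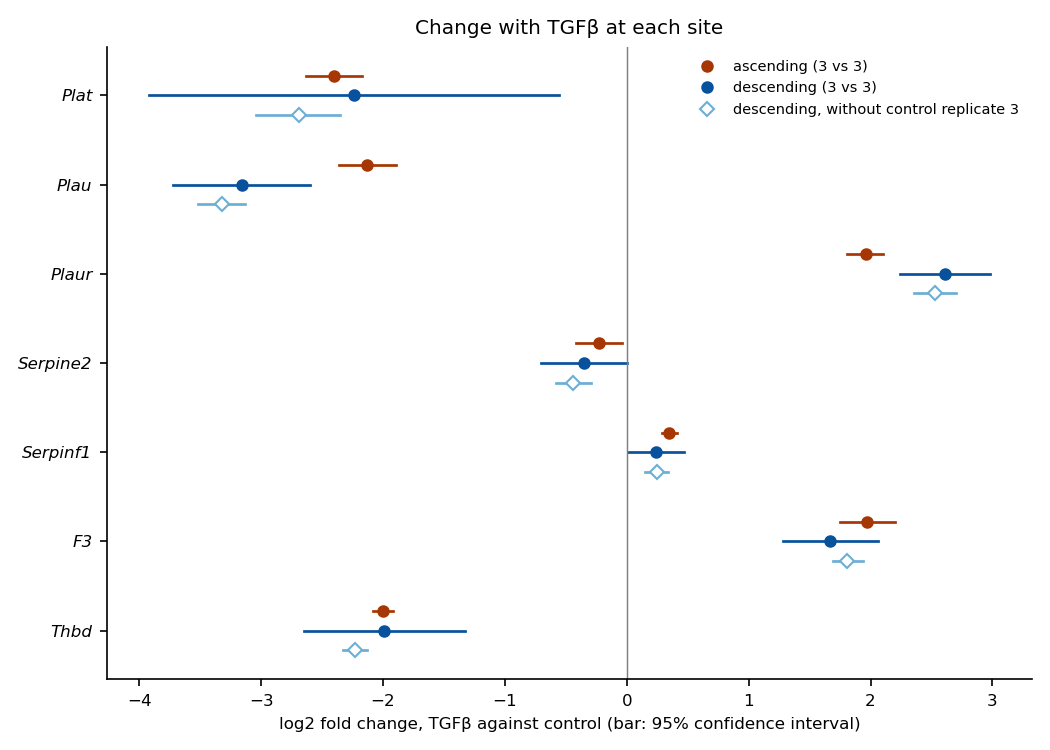
Log2 fold change with TGFβ (x axis) for the 7 genes (rows); circles are the tests of 3 against 3 libraries at each site, diamonds the descending test without control replicate 3, and bars 95% confidence intervals. *Plat*, *Plau* and *Thbd* lie to the left of 0 and *Plaur* and *F3* to the right at both sites, and the bars of *Serpine2* and *Serpinf1* lie near 0.

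The promoters of *F3* and *Plaur*, the pair of members that rose most, are shown since they can be read for motifs of factors known to act downstream of TGFβ. They are the 250 bases before the RefSeq start site on GRCm38.p6, at chr3:121723287-121723536 and chr7:24462233-24462482, both on the plus strand. Capitals mark matches to TGANTCA (the AP-1 motif), GGGCGG (Sp1 and KLF factors) and GGANTTTCC (NF-kB), searched on both strands. Matches can overlap, as the GGGCGG run of *Plaur* does.
F3: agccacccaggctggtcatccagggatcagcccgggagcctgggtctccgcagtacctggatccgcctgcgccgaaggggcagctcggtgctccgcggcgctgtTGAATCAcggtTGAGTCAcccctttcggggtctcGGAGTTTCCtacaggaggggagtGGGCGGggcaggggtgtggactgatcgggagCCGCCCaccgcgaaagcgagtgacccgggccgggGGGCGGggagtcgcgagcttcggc
Plaur: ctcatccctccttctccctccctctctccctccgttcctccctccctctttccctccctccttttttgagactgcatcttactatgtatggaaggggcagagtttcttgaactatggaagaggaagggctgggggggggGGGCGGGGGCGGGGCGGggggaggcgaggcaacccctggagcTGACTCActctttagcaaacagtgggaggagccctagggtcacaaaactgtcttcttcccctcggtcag
The AP-1 motif occurred in *F3* as TGAATCA and TGAGTCA, starting 146 and 135 bases before the start site, and in *Plaur* as TGACTCA, 69 bases before it. Of 32544 RefSeq windows that run from 250 bases before to 50 after a start site, 7.79% held this motif. The NF-kB motif stood 112 bases before the start of *F3* and occurs in 1.26% of windows. GGGCGG matched 3 times in each and occurs in 35.9% of windows. The SMAD motif CAGAC had no match in either of these windows and occurs in 49.5% of all, and TATAAA, in 13.6% of all, matched only the *F3* window, on the opposite strand after the start site. In the windows of the serpin genes, *Serpine2* held 6 matches to GGGCGG and 1 to CAGAC, and *Serpinf1* 2 to CAGAC and none to TGANTCA. *Plat*, *Plau* and *Thbd* had no window in the table used. A match describes these letters and not a bound site.

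Between the sites, control fibroblasts differed most in *F3*, whose level was 8.43-fold lower in ascending cells, a log2 fold change of -3.08 ± 0.18 (edgeR adjusted p = 0.00204; -2.93 without descending control replicate 3). *Serpinf1* was 2.27-fold lower in ascending cells, at -1.18 ± 0.09 (edgeR adjusted p = 0.00482; -1.18 without that library). *Plau* was 2.21-fold lower, at -1.14 ± 0.20, just past the threshold (edgeR adjusted p = 0.0493; -1.31 without that library). *Serpine2* lay just on the other side of it, at -0.92 ± 0.17 (edgeR adjusted p = 0.0549; -1.01 without that library), although its groups did not overlap, and it passed under 5 of the 12 alternatives, over which its adjusted p ran from 1.57e-06 to 0.339. *Plaur* had a log2 difference of 0.71 ± 0.18 (edgeR adjusted p = 0.153; DESeq2 adjusted p = 0.0142; one edgeR fit of 12 libraries, adjusted p = 0.00406), and 0.63 without that library (adjusted p = 0.00115), toward ascending cells. *Plat* had one of 0.97 ± 0.61 (edgeR adjusted p = 0.526), also toward ascending cells, which was 0.52 ± 0.09 without that library (adjusted p = 0.000497). *Thbd* had a log2 difference of 0.00, with a 95% confidence interval from -0.63 to 0.64. So 3 of 7 genes passed the test, all lower in ascending fibroblasts, where 2.65% of 14090 genes passed, 1.19% higher and 1.47% lower. Without descending control replicate 3 all 7 passed, *Plat* and *Plaur* higher and 5 lower, where 31.6% of 14644 genes did, 16.4% higher and 15.2% lower. *Thbd* was then lower in ascending cells by 0.24 on the log2 scale (edgeR adjusted p = 0.00014). Leaving out any one ascending control library, with the descending 3 kept, left *F3* as the 1 call, with adjusted p of 0.0640 to 0.0781 for *Serpinf1* and 0.228 to 0.308 for *Plau*. Leaving out descending control replicate 1 or 2 also ended the call of *Plau*, at adjusted p of 0.166 and 0.195. Several marker lists also differed between the sites. The mesothelial sum was higher in the ascending libraries, and so was the macrophage sum within each treatment. The mesothelial *Krt19* was lower in the ascending libraries, at 3.41 to 4.17 against 6.90 to 13.3 normalized CPM. *Sox10* of the Schwann cell list was detected only in the ascending libraries. The adipocyte and smooth muscle sums were lower in the ascending libraries than in the descending ones of the same treatment. Most of the smooth muscle sum was *Acta2*. *Des* went the other way, at 2.63 to 3.35 normalized CPM in ascending and 1.56 to 1.87 in descending control. *Cnn1*, *Tagln*, *Smtn*, *Lmod1* and *Actg2* overlapped between the sites in control. The endothelial sum was lower in ascending than in descending TGFβ libraries and overlapped between the sites in control. The part of such cells in the site differences was not tested.

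Under TGFβ the comparison does not involve the library that stood apart. *F3* was 6.85-fold lower in ascending cells, a log2 fold change of -2.78 ± 0.07 (edgeR adjusted p = 4.48e-23), and *Serpinf1* was 2.11-fold lower, at -1.08 ± 0.03 (adjusted p = 2.07e-20). *Serpine2* was 1.75-fold lower, at -0.81 ± 0.07 (edgeR adjusted p = 1.17e-10). *Plat* was 1.75-fold higher, at 0.81 ± 0.22 (edgeR adjusted p = 0.004), on 70 to 82 reads per ascending and 30 to 56 per descending library. These 4 of 7 calls, 1 higher and 3 lower, stand beside 36.3% of 13678 genes, 18.1% higher and 18.2% lower. The remaining 3 had adjusted p from 0.445 to 0.875. Their 95% intervals were -0.43 to 0.20 for *Plau*, -0.05 to 0.15 for *Plaur* and -0.10 to 0.08 for *Thbd*, so a site difference of 2-fold lies outside each.

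**Figure D3:**
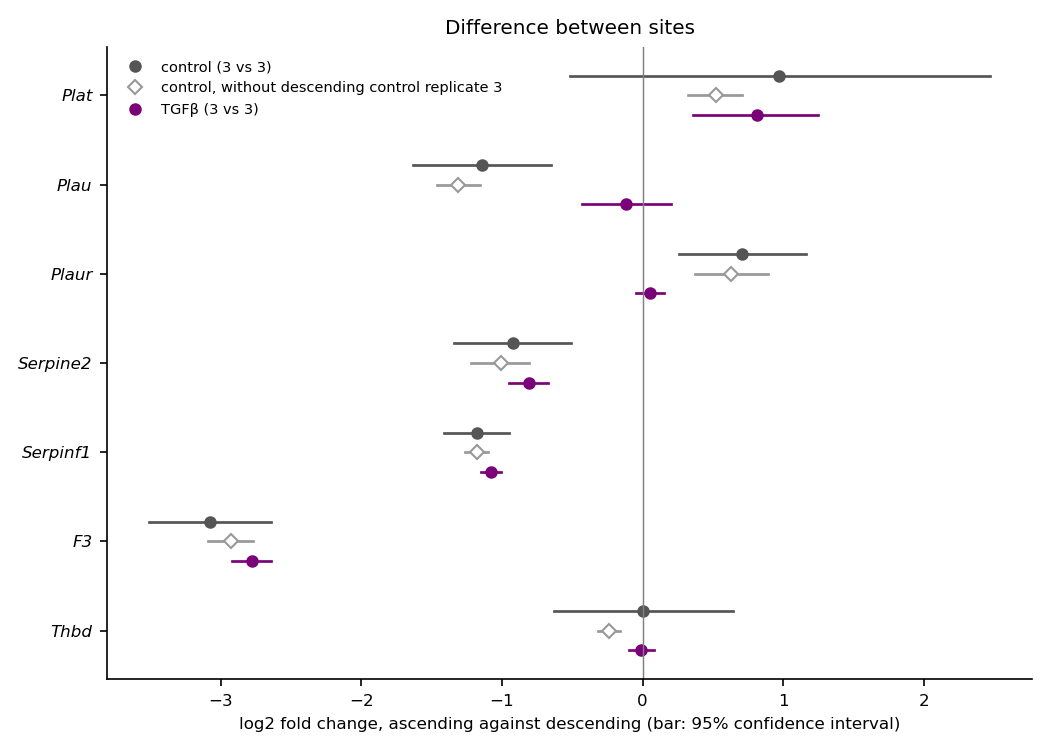
Log2 fold change of ascending against descending fibroblasts (x axis) for the 7 genes (rows), in control with 3 against 3 libraries (grey circles), in control without descending replicate 3 (open diamonds) and under TGFβ (purple circles), with 95% confidence intervals. *F3*, *Serpinf1* and *Serpine2* lie left of 0 in all 3 tests, and *Plau*, *Plaur* and *Thbd* have TGFβ intervals that cover 0.

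Whether the response itself differed between sites was asked with the interaction of site and TGFβ over the 12 libraries. By edgeR's test 0 of 7 genes passed, where 0.806% of 14637 genes did, 0.321% with a positive and 0.485% with a negative value, while 2 had an unadjusted p under 0.05 and DESeq2 called 2, *Plau* and *Plaur*. For *Plau* the interaction was 1.04 ± 0.26 on the log2 scale, a smaller fall in ascending cells (edgeR adjusted p = 0.125; DESeq2 adjusted p = 0.0134). For *Plaur* it was -0.65 ± 0.17, a smaller rise in ascending cells (edgeR adjusted p = 0.144; DESeq2 adjusted p = 0.00551). Without descending control replicate 3 there were 3 calls of 7, where 13.5% of 15013 genes passed, 6.07% positive and 7.40% negative. They were *Plau* at 1.20 (edgeR adjusted p = 3.50e-06), *Plaur* at -0.57 (adjusted p = 0.00119) and *Thbd* at 0.24 (adjusted p = 0.00555). For each of these 3 the sites differed in control without that library, and their levels overlapped under TGFβ. *F3* was not among them: its interaction was 0.30 ± 0.20 with all libraries, with a 95% interval of -0.15 to 0.75, and 0.16 without that library. The interactions of *Serpine2*, *Serpinf1* and *Plat* were 0.12 ± 0.19, 0.11 ± 0.08 and -0.15 ± 0.71 with all libraries, and 0.21, 0.11 and 0.29 without that one (edgeR adjusted p from 0.18 to 0.441), and that of *Thbd* was -0.01 ± 0.28 with all.

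Per length of merged exon, the levels of the genes can be set against each other. In ascending control *Thbd* stood at 178 normalized CPM per kb and *Serpinf1* at 163, while *Plau* stood at 9.52, *Plaur* at 6.72, *F3* at 4.19, *Serpine2* at 3.26 and *Plat* at 3.16. In descending TGFβ cells *Serpinf1* stood at 442, *F3* at 113, *Thbd* at 45.1, *Plaur* at 25.4, *Serpine2* at 4.90, *Plau* at 2.37 and *Plat* at 0.342. In descending control *F3* stood at 35.4 and *Thbd* at 178 (32.2 and 212 without replicate 3), so in descending cells tissue factor went from below thrombomodulin to above it. Within a library, the ratio of *F3* to *Thbd* counts per kb was 0.159, 0.145 and 0.378 in descending control and 2.43, 2.70 and 2.41 in descending TGFβ libraries. In ascending cells it was 0.0223, 0.0253 and 0.0229 in control and 0.364, 0.447 and 0.301 with TGFβ, so thrombomodulin RNA stayed the more abundant there. The highest of the descending controls was replicate 3, and no group overlapped except that replicate with ascending TGFβ.

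The ratio of *Plaur* to *Plau*, the receptor against its ligand, was 0.174 to 0.230 in descending and 0.624 to 0.817 in ascending control, and 9.13 to 12.0 and 9.86 to 13.6 with TGFβ. Receptor RNA thus exceeded ligand RNA per length in treated and not in control libraries. *Plau* exceeded *Plat* in all 12 libraries, from 2.83 times in ascending control to 41.4 times in descending control replicate 3, whose *Plat* rested on 34 reads. Ratios within a library do not depend on the scaling between libraries.

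**Figure D4:**
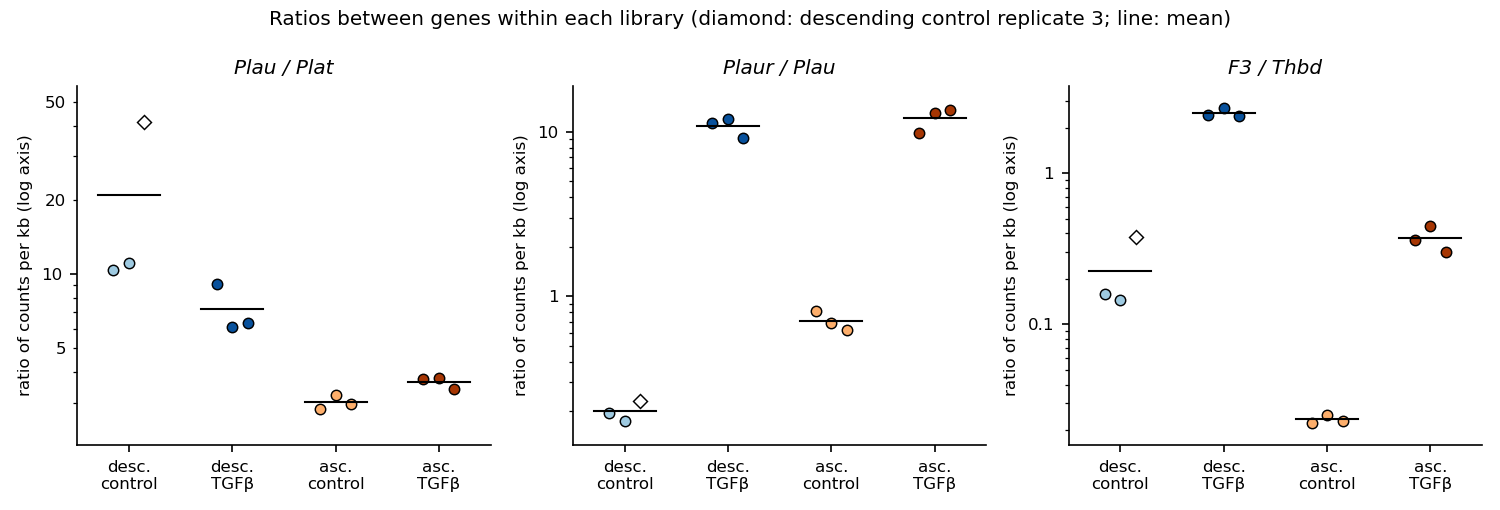
Ratio of counts per kb of merged exon within each library, on log axes, for *Plau* to *Plat*, *Plaur* to *Plau* and *F3* to *Thbd*; 1 point per library, the diamond is descending control replicate 3 and lines are means. The first ratio lies above 1 in every library and is highest in the diamond, the second lies with TGFβ at 9.13 or higher, and the third lies above 1 in treated descending cells alone.

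The other genes of plasminogen activation and coagulation were taken as a list of 47. Of these, 17 had at most 3 counts in every library, among them plasminogen (*Plg*), prothrombin (*F2*), factors VII, IX, X, XI and XII, the 3 fibrinogen chains and protein C (*Proc*), which are mostly made in liver, and 19 were tested in every comparison. In ascending fibroblasts 10 of 19 tested rose and 5 fell with TGFβ, beside 55.8% of all genes, with a median absolute log2 fold change of 0.37, where it was 0.28 over all genes tested. *Tfpi2*, a Kunitz inhibitor of plasmin and of the tissue factor complex, rose by 2.22 ± 0.15 (edgeR adjusted p = 1.20e-09) from a mean of 3.37 to 15.7 normalized CPM. *Lman1* and *Mcfd2*, the cargo receptor pair that carries factors V and VIII out of the endoplasmic reticulum, rose by 0.77 (edgeR adjusted p = 9.82e-13) and 0.43 (adjusted p = 5.61e-09). *Eno1*, an enolase that also binds plasminogen at the cell surface, rose by 0.32 (edgeR adjusted p = 3.72e-08). *S100a10*, a partner of annexin A2 in binding plasminogen at the cell surface, fell by 0.98 on the log2 scale (edgeR adjusted p = 5.12e-14), while *Anxa2* itself had a log2 fold change of -0.03 (adjusted p = 0.333). *Pros1*, the cofactor of protein C, fell by 0.54 (edgeR adjusted p = 4.75e-08). *F2rl1*, the protease-activated receptor 2, fell by 1.6 on the log2 scale (edgeR adjusted p = 2.91e-06) and *F8*, factor VIII, fell by 0.44 (adjusted p = 0.0197), both from under 7 normalized CPM. The call of *F8* was lost without ascending TGFβ replicate 2 (adjusted p = 0.0798) or 3 (adjusted p = 0.061).

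In descending fibroblasts 1 of 20 tested rose and 0 fell by edgeR's test with all libraries, beside 8.07% of all genes, and without control replicate 3 the counts were 10 and 6 of 22, beside 52.9%. The 1 was *Tfpi2*, which rose by 1.55 ± 0.21 (edgeR adjusted p = 0.0108). Without control replicate 3 this change was 1.67. The call of *Tfpi2* did not survive the loss of 1 of the other 5 libraries, whichever it was, with adjusted p from 0.0538 to 0.0932. A further 10 genes at 100 CPM or more in some group did not pass edgeR's test with all libraries, with adjusted p from 0.059 for *Pros1* to 0.572 for *Anxa2*: *Anxa2*, *S100a10*, *Eno1*, the clearance receptor *Lrp1*, the urokinase receptor-associated *Mrc2*, *Lman1*, *Mcfd2*, the tissue factor pathway inhibitor *Tfpi*, *Pros1* and the thrombin receptor *F2r*. With all libraries DESeq2 called 3 of them, *Pros1* lower at -0.52 (adjusted p = 0.000179) and *Eno1* and *Mcfd2* higher (adjusted p = 0.0171 and 0.0296). With the 12 libraries in one edgeR fit these 3, *Lrp1* and *Lman1* were called (adjusted p from 0.00201 to 0.0383), and with at least 10 counts in every library *Pros1* was (adjusted p = 0.0418). Without control replicate 3 the 10 passed except for *Anxa2*, which had a log2 fold change of 0.04 (edgeR adjusted p = 0.546). Of the 50-base exon sequences of *Eno1*, 26.0% also occur in *Eno1b* or other genes, so its counts are uncertain.

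**Figure D5:**
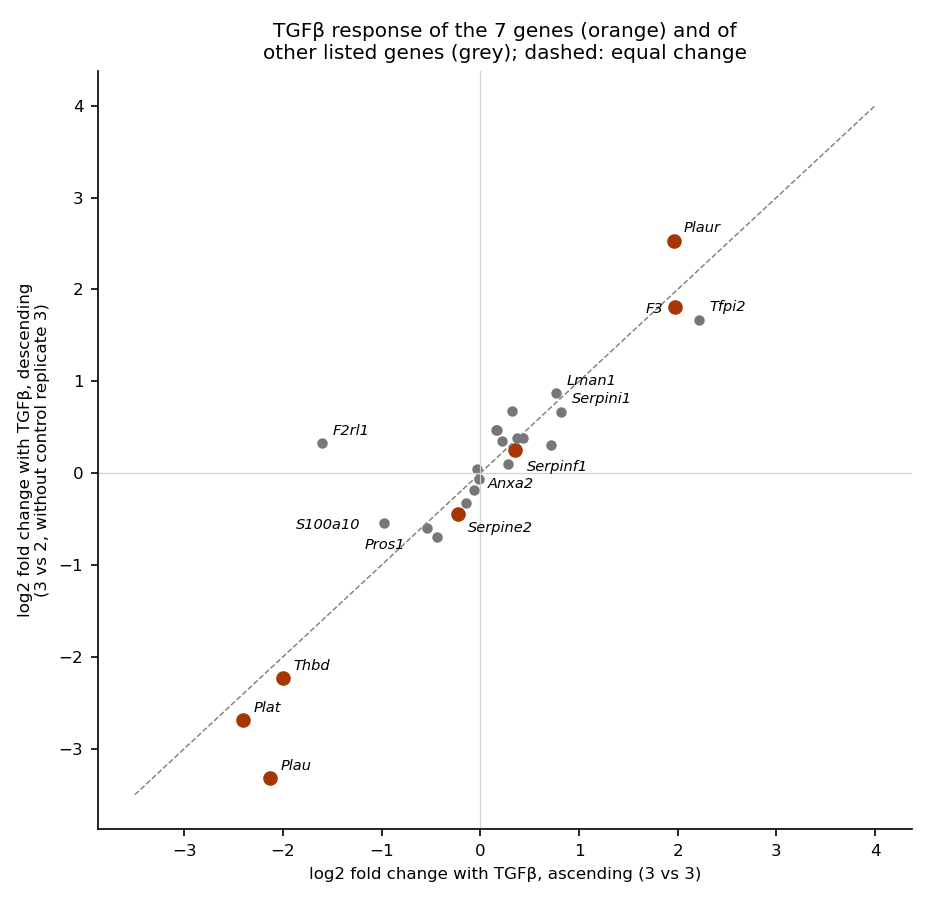
Log2 fold change with TGFβ in ascending (x axis, 3 against 3 libraries) and descending fibroblasts (y axis, without control replicate 3) of the 7 genes (orange) and the other 19 listed genes with both values (grey), 1 point per gene; the dashed line marks equal change. *Plat*, *Plau* and *Thbd* form the lower left end and *Plaur*, *F3* and *Tfpi2* the upper right, while *F2rl1* lies apart, with a descending value that did not pass the test.

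Between the sites in control, 0 of 21 listed genes tested were higher in ascending cells and 1 lower, beside 2.65%, and without descending control replicate 3 the counts were 7 and 5 of 24, beside 31.6%. The 1 was the kininogen *Kng2*. *Kng2* held 4.17, 3.43 and 2.62 normalized CPM in descending control and 0.130, 0.05 and 0.195 in ascending control (edgeR adjusted p = 0.0182, and 3.44e-07 without descending control replicate 3), at most 4 counts per ascending library, and shares 19.4% of its 50-base sequences with *Kng1*. The call was lost whichever of the other 5 libraries was left out, with adjusted p from 0.0971 to 0.164. Under TGFβ 4 of 20 were higher and 7 lower in ascending cells, beside 36.3%. *Serpini1*, neuroserpin, an inhibitor of tissue-type plasminogen activator, was higher by 1.39 ± 0.09 (edgeR adjusted p = 1.81e-13), *Tfpi2* by 0.58 (adjusted p = 0.000132), *Mcfd2* by 0.25 (adjusted p = 2.74e-06) and *Eno1* by 0.10 (adjusted p = 0.019), the last not called without ascending TGFβ replicate 1 (0.103) or 3 (0.08). *Tfpi* was lower at -0.45 (edgeR adjusted p = 4.69e-08), *Lrp1* at -0.34 (adjusted p = 1.01e-06) and *F2rl1* at -1.15 (adjusted p = 8.48e-05). *Kng2* was also lower (edgeR adjusted p = 2.32e-05), on 2, 4 and 5 counts in the ascending libraries, near the floor, and 20 to 27 in the descending ones.

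Genes with profiles most like each member were taken as the 3 highest Pearson's r of log2 CPM among 12708 genes over the 11 libraries other than descending control replicate 3. These r values describe libraries that share 4 groups and carry no p. *Plat* was matched by *Prkaca* (0.996), *Per3* (0.995) and *Gucy1a1* (0.992). *Plau* was matched by *C1ra* (0.995), *Il1r1* (0.993) and *Lxn* (0.991). *Plaur* was matched by *Nuak2* (0.997), *Rab3ip* (0.997) and *Slc8a1* (0.996). *F3* was matched by the actin-associated genes *Palld* (0.997) and *Tpm2* (0.991) and by *Thbs1* (0.996), thrombospondin 1. *Thbs1* had a geometric mean of 8681 CPM over the 12 libraries. *Thbd* was matched by *Adm* (0.998), *Ly6a* (0.997) and *Slco2a1* (0.997). *Serpine2* was matched by *Comp* (0.981), *Ebf2* (0.976) and *Spp1* (0.976), and *Serpinf1* by *Cacna1g* (0.994), *Klf2* (0.99) and *Nfatc4* (0.99). Among the 7 themselves, *Thbd* and *Plaur* had an r of -0.99, *Thbd* and *Plau* 0.96, and *F3* and *Serpinf1* 0.95.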

How the data were processed

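Paired-end RNA-seq of the 12 samples was aligned to mm10 with STAR and counted with featureCounts by the authors, and the deposited values are raw read counts per gene symbol, without normalization. The strand setting and the treatment of reads matching several genes are not given in the sources used here. Of 54352 symbols, 53753 matched GENCODE vM21 (GRCm38), from which positions and merged exon lengths were taken. Total counts ran from 16250126 to 23892943 per library. Groups followed the sample labels.

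Counts were analyzed in R 4.3.3 with edgeR 4.0.16 (TMM, filterByExpr with a minimum count of 10 and total of 15, two-sided quasi-likelihood F-test) and Benjamini-Hochberg adjustment over all genes tested. A call was an adjusted p under 0.05. Within-site and within-treatment comparisons were fitted on their 6 libraries and the interaction on all 12. The SE was the absolute log2 fold change divided by the square root of F. Alternatives were a Wald test in DESeq2 1.42.0, edgeR with size factors from DESeq2, an unfiltered table, a minimum of 10 counts per library, the replicate number as a block, one fit of 12 libraries, and each library left out. On simulated data with 200 changed genes, both tools recovered 100% of them in every comparison, with 1.48 to 6.54% false calls. The simulated libraries all shared one small spread, and none stood apart as descending control replicate 3 did. Only genes well above the floor were changed, all by one size. This checks the code and does not measure power in the real comparisons, least of all those with that library.

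The 7 members, the 47 listed genes and the marker lists were chosen with earlier results of these data known. Named beside the members were, per comparison, up to 4 listed genes per direction with the smallest adjusted p among those called, and in the TGFβ comparisons also uncalled listed genes at 100 CPM or more. Promoters came from RefSeq (GRCm38.p6). 1 further gene of this pathway is not reported here.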

Additional observations from a re-analysis of the deposited data

How the results depend on the processing

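Of 455 alternative values for the 35 combinations of member and comparison, 401 kept their direction and call. Of the others, 23 lost the call and 20 gained it with the sign kept, and 11 changed sign. Without descending control replicate 3, *Thbd* both changed sign and gained a call. This held between sites in control (edgeR adjusted p = 0.00014) and for the interaction (adjusted p = 0.00555). Direction and call were kept throughout in 16 of the 35 combinations. The sign changes lay near 0, apart from those without descending control replicate 3. *Thbd* between sites in control was -0.00 with the 12 libraries in one fit and ran from -0.24 to 0.16 with 1 library left out (-0.02 without ascending control replicate 2). *Thbd* under TGFβ ran from -0.04 to 0.02. Without 1 library the *Plat* interaction ran from -0.53 to 0.29 and that of *Thbd* from -0.16 to 0.24. The counts over all genes moved with the library left out, the replicate block and the fit, and the cause was not tested. With 1 library left out, calls with TGFβ in descending fibroblasts ran from 213 to 7576 and members called from 3 to 7, calls between sites in control from 33 to 4631 and members from 1 to 7, and interaction calls from 25 to 2022 and members from 0 to 3, each highest without descending control replicate 3. DESeq2's Wald test gave 2531 calls for TGFβ in descending fibroblasts with 6 members, 1151 between sites in control with 5 members, and 497 for the interaction with 2 members. With the 12 libraries in one fit, where all groups share one estimate of the spread, the calls were 2338 for TGFβ in ascending, 3570 in descending with 6 members, 1545 between sites in control with 5 members, and 1106 between sites under TGFβ, where *Plat* lost its call (edgeR adjusted p = 0.604), as did *Tfpi2*, *Mcfd2*, *Lrp1*, *F2rl1*, *Tfpi* and *Eno1* (adjusted p from 0.0737 for *Tfpi2* to 0.784 for *Tfpi*, and 1.0 for *Eno1*). In that fit *Serpine2* (0.341), *Eno1* (0.428), *F2rl1* (0.23) and *F8* (0.694) also lost their calls with TGFβ in ascending fibroblasts. Without a filter on low counts the interaction had 56 calls, and with at least 10 counts in every library *Kng2* was not tested.

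Replicates of the same number were not shown to be paired: across genes, their deviations from the group means had correlations from -0.026 to 0.0655. With the replicate block, which leaves fewer degrees of freedom, there were 95 calls for TGFβ in descending fibroblasts with 2 members, 0 between sites in control with 0 members, and 50 for the interaction. Among the 7 genes depth limits *Plat* most, whose treated libraries rest on 30 to 82 reads, and among the listed genes *Kng2*, at 1 to 5 reads in the ascending libraries, rests on fewer. The 17 listed genes at or under 3 counts in every library, 10 of them with none, were not detectable above the floor at this depth.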

Other observations

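*F2rl1*, the protease-activated receptor 2, passed the test with TGFβ in ascending fibroblasts and not in descending ones, where its log2 fold change was 0.89 ± 1.16 with all libraries (edgeR adjusted p = 0.69) and 0.33 ± 0.20 without control replicate 3 (adjusted p = 0.175). It held 5.91, 5.10 and 4.92 normalized CPM in ascending control and 1.52, 1.61 and 2.14 in ascending TGFβ libraries, against 3.23, 2.99 and 0 in descending control and 4.03, 3.31 and 4.35 in descending TGFβ libraries. The 0 was in descending control replicate 3. The interaction was -2.46 ± 1.09 on the log2 scale (edgeR adjusted p = 0.49), and -1.92 ± 0.28 without that library (adjusted p = 2.30e-05). Of the listed genes, 0 of 21 tested had an interaction call with all libraries, beside 0.806% of all genes. Without that library 2 of 22 were called with a positive and 5 with a negative value, beside 13.5%. Besides *F2rl1*, the negative ones included *Eno1* (edgeR adjusted p = 4.68e-06) and *S100a10* (adjusted p = 1.61e-05).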
